A study of Mus musculus and Rattus norvegicus with 14 samples.

Results

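VEGF and angiopoietin signalling was followed through 10 genes, chosen by name for their known roles: the ligands Vegfa, Vegfb, Vegfc and Pgf, the receptors Flt1, Kdr and Flt4, the angiopoietins Angpt1 and Angpt2, and their receptor gene Tek. All 10 were found among 54532 mouse genes and among 33600 rat genes. Messenger RNA was sequenced from 12 libraries of mouse heart and 2 libraries of primary rat cells. The mouse hearts formed 4 groups of 3, labelled LQ-40, SQ-3, Model and Sham. LQ-40 and SQ-3 are candidate compounds against myocardial fibrosis, known here by code name. The rat libraries, 1 each, held a 3D co-culture and 2D cells. For both the labels list cardiomyocytes, fibroblasts of the heart and macrophages grown from bone marrow. By the study's title the 3D tissue was under hypoxia. Strain, age, sex, dose, treatment time and model procedure are not stated in the sources used, nor whether the hearts given LQ-40 or SQ-3 went through the procedure of the Model hearts. No label ties libraries to separate animals, so every p-value measures only the spread among these samples, which may be technical. Doses are not stated, so LQ-40 and SQ-3 were compared without knowing whether they matched.

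Vascular endothelial growth factors are secreted ligands that bind receptor tyrosine kinases on endothelial cells, and the VEGFA signal through VEGFR2 is the main driver of blood vessel sprouting. VEGFB and placental growth factor bind VEGFR1, which takes up VEGFA with high affinity and signals weakly, while VEGFC acts through VEGFR3 on lymphatic vessels. Angiopoietin 1, made largely by cells around the vessel, activates the receptor TIE2 and keeps vessels quiet, and angiopoietin 2, released by endothelial cells, can block that signal. In the heart, muscle cells are a main source of VEGFA and VEGFB, and endothelial cells carry the receptors.

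Each mouse library held between 13085370 and 16698987 assigned reads, and each of the 10 genes had 77 to 5367 reads in every library, so all 10 passed the filter on low values. Levels are given as scaled FPKM, meaning fragments per kilobase of gene and per unit of library size, as deposited, divided by a factor per library that makes libraries comparable. Differences were tested with limma on log2(scaled FPKM + 1) over 13000 genes, and a gene was called where its Benjamini-Hochberg adjusted p was under 0.05. Fold changes in mouse hearts are on this scale, so for low genes they are smaller than the ratio of the levels printed. The heart markers were high in every mouse library. The summed level of 7 cardiomyocyte markers was 6612 to 13338 in LQ-40, 10239 to 13306 in SQ-3, 8114 to 9748 in Model and 16162 to 17806 in Sham hearts. The sum of 7 fibroblast markers was 1020 to 3592 in LQ-40, 1608 to 2119 in SQ-3, 2923 to 3133 in Model and 447 to 565 in Sham hearts. The LQ-40 libraries differed most among themselves: library 1 had the lowest fibroblast and the highest cardiomyocyte sum of its group, and library 3 the reverse. The sum of 10 endothelial markers overlapped between all groups, at 349 to 411 in LQ-40, 336 to 390 in SQ-3, 352 to 391 in Model and 305 to 396 in Sham hearts. These are whole pieces of tissue, in which fewer cells of a type and less RNA per cell cannot be told apart.

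Per unit of gene length, Vegfb was the most abundant of the 10 transcripts in every group. In LQ-40 hearts its mean of 83.3 scaled FPKM was followed by Kdr, Tek, Vegfa and Flt1, from 27.3 to 16.7, each of which overlapped a neighbour in this order. In SQ-3 hearts Vegfb at 97.9 was followed by Kdr at 33.2, Vegfa at 28.4 and Tek at 27.5, which overlapped in the same way. In Model hearts Vegfb stood at 73.7 and Vegfa, at 45.8, lay above Kdr at 28.4 without overlap. Flt4 at 10.3 lay above Vegfc and Angpt1 there, and Pgf, at 3.92, was lowest and overlapped Angpt2 at 4.35. In Sham hearts Vegfb at 137 was followed by Kdr at 39.6, Vegfa at 36.1, Tek at 27.9 and Flt1 at 20.6, and only Kdr and Vegfa overlapped in level among these. Angpt1, Flt4, Vegfc and Pgf followed between 6.11 and 4.70 with overlapping ranges, and Angpt2 was lowest at 1.76. These values sum over all transcripts of a gene, so splice forms such as soluble Flt1 are not separated.

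Vegfa is the ligand gene called in LQ-40 against Model hearts, and Vegfb and Flt1 are the ligand and receptor genes lower in Model hearts. For this reason the stretches of 250 bases just before their transcription starts are shown. They come from RefSeq on GRCm38.p6, for 8 of the 10 genes, all 3 on the minus strand and written 5′ to 3′, at chr17:46032378-46032627 for Vegfa, chr19:6987652-6987901 for Vegfb and chr5:147726012-147726261 for Flt1. Capitals mark the GC box, GGGCGG or its reverse complement CCGCCC.
Vegfa: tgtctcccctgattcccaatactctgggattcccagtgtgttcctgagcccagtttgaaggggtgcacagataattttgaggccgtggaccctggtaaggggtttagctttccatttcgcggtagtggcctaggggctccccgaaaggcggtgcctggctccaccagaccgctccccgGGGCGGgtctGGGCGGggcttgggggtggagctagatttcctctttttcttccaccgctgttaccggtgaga
Vegfb: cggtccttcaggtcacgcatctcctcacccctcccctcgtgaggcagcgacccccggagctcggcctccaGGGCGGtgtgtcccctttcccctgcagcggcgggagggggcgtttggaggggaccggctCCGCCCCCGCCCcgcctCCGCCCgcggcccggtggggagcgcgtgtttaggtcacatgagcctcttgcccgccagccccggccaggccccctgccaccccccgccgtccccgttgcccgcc
Flt1: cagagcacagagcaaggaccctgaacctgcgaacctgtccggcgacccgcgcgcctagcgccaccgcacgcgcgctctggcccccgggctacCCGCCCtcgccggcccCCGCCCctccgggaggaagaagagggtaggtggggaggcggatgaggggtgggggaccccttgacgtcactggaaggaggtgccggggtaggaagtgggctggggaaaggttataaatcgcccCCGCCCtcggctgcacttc
Vegfa held 2 GC boxes at a GC content of 59.2%, Vegfb 4 at 76.4% and Flt1 3 at 70.4%, where 32.7% of 32851 promoters of this length held at least 1. The core of the hypoxia response element, ACGTG, was found in 16.6% of all promoters, the ETS site CCGGAA in 12.03% and the estrogen-related receptor site AAGGTCA in 4.08%, each searched on both strands. None of these 3 motifs was found in the stretches printed, which says only that the letters are not in these windows. RefSeq gives Vegfa a second start within the gene, and the 250 bases before it (chr17:46025164-46025413, minus strand, 218 of them in annotated exons) held 1 hypoxia core and 1 GC box. Angpt1 and Angpt2 are named only.

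Model hearts were first set against Sham hearts. Flt4 and Angpt2 rose in Model hearts and Vegfb and Flt1 fell, so that 2 of the 10 genes were higher and 2 lower, while 38.9% of all genes tested were called in this comparison, 20.9% higher and 18% lower. The share among the 10 was thus near that of all genes. Their median log2 difference was -0.16 against 0.03 over all genes. For 6 of the 10 no Model library overlapped a Sham library, 3 higher and 3 lower in Model, against 55.5% of all genes, 29.8% higher and 25.7% lower.

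Among the ligands, Vegfa (chromosome 17, 46016993 to 46032369, mm10), the main angiogenic factor, had 43.6, 48.5 and 45.4 scaled FPKM in Model libraries and 37.0, 36.4 and 35.1 in Sham libraries. Every Model library lay above every Sham library, yet the difference missed the threshold (log2 0.33, SE 0.13, adjusted p = 0.0569). It passed under 3 of 14 alternatives, with adjusted p between 0.0174 and 0.151 over them. Vegfb (chromosome 19, 6982473 to 6987651), a ligand of VEGFR1 abundant in heart muscle, had 71.1, 81.7 and 68.2 scaled FPKM in Model libraries and 143, 126 and 141 in Sham libraries. The groups lay far apart. Vegfb fell 1.85-fold in Model hearts (log2 -0.89, SE 0.25, adjusted p = 0.0181), but quantile normalization ended the call (adjusted p = 0.0591), as did leaving out Model library 1 (0.0563), Model library 3 (0.0576) or Sham library 1 (0.0552), in a range of 0.00156 to 0.0591 over the alternatives. Both ligands were set against the summed level of the 7 cardiomyocyte markers, which holds neither. Vegfb then overlapped between the groups, at 0.877, 0.865 and 0.699% of the sum in Model and 0.805, 0.709 and 0.872% in Sham libraries. The ratio of Vegfa to that sum was 0.505 ± 0.036% in Model hearts, against 0.210 ± 0.0065% in Sham hearts (SD, n = 3 each). The sum itself was lower in Model (8114 to 9748) than in Sham libraries (16162 to 17806). At an unchanged Vegfa level this ratio would thus also be higher in Model hearts.

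Vegfc (chromosome 8, 54077606 to 54187096), the lymphatic ligand of VEGFR3, had 7.86, 6.33 and 5.90 scaled FPKM in Model libraries and 4.34, 3.65 and 6.27 in Sham libraries. The groups overlapped through Sham library 3, and the difference was not called (log2 0.44, SE 0.18, adjusted p = 0.0710); without Sham library 3 it was 0.62 with an adjusted p of 0.0181, the lowest over the alternatives, where the highest was 0.233. Pgf (chromosome 12, 85166635 to 85177790), placental growth factor, had 3.48, 4.30 and 3.99 scaled FPKM in Model libraries and 6.43, 4.08 and 3.58 in Sham libraries. Its groups overlapped (log2 -0.18, adjusted p = 0.381).

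The 3 receptors did not move one way. Flt4 (chromosome 11, 49609263 to 49652739), which encodes VEGFR3, had 11.3, 10.4 and 9.26 scaled FPKM in Model libraries and 4.38, 5.66 and 6.03 in Sham libraries. No libraries overlapped, and Flt4 rose 1.79-fold in Model hearts (log2 0.84, SE 0.12, adjusted p = 0.00102), a call kept under all 14 alternatives. Flt1 (chromosome 5, 147561604 to 147726011), which encodes VEGFR1, had 14.2, 16.1 and 15.7 scaled FPKM in Model libraries and 21.3, 19.9 and 20.6 in Sham libraries. Flt1 fell 1.32-fold in Model hearts without overlap (log2 -0.40, SE 0.14, adjusted p = 0.0366). The call was lost under 9 of 14 alternatives, among them each removal of 1 library, with adjusted p between 0.0102 and 0.120. Kdr (chromosome 5, 75932827 to 75978458), which encodes VEGFR2, had 29.5, 29.3 and 26.3 scaled FPKM in Model libraries and 35.1, 37.0 and 46.8 in Sham libraries. Its Model libraries all lay below the Sham libraries, but the difference was not called (log2 -0.46, SE 0.22, adjusted p = 0.117); it passed with only these groups in the fit (adjusted p = 0.0278, range 0.0278 to 0.300).

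Of the angiopoietins, Angpt2 was called and Angpt1 was not. Angpt2 (chromosome 8, 18690263 to 18741562), the vessel-destabilizing ligand, had 4.52, 3.93 and 4.60 scaled FPKM in Model libraries and 2.05, 1.56 and 1.66 in Sham libraries. No libraries overlapped, and Angpt2 rose 1.94-fold in Model hearts (log2 0.96, SE 0.18, adjusted p = 0.00299), a call kept under all 13 alternatives that could be computed for it. Angpt1 (chromosome 15, 42424723 to 42676977), the stabilizing ligand, had 4.77, 5.95 and 5.35 scaled FPKM in Model libraries and 7.07, 6.63 and 4.63 in Sham libraries. These overlapped (log2 -0.15, adjusted p = 0.404). Angpt1 is uncertain because its exons overlap those of the antisense gene Gm17473 over 737 bases and the strand setting of the counting is not given. Tek (chromosome 4, 94739289 to 94874976), which encodes TIE2, had 23.4, 25.3 and 23.2 scaled FPKM in Model libraries and 24.5, 29.0 and 30.2 in Sham libraries, also with overlap (log2 -0.21, adjusted p = 0.206).

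**Figure D1:**
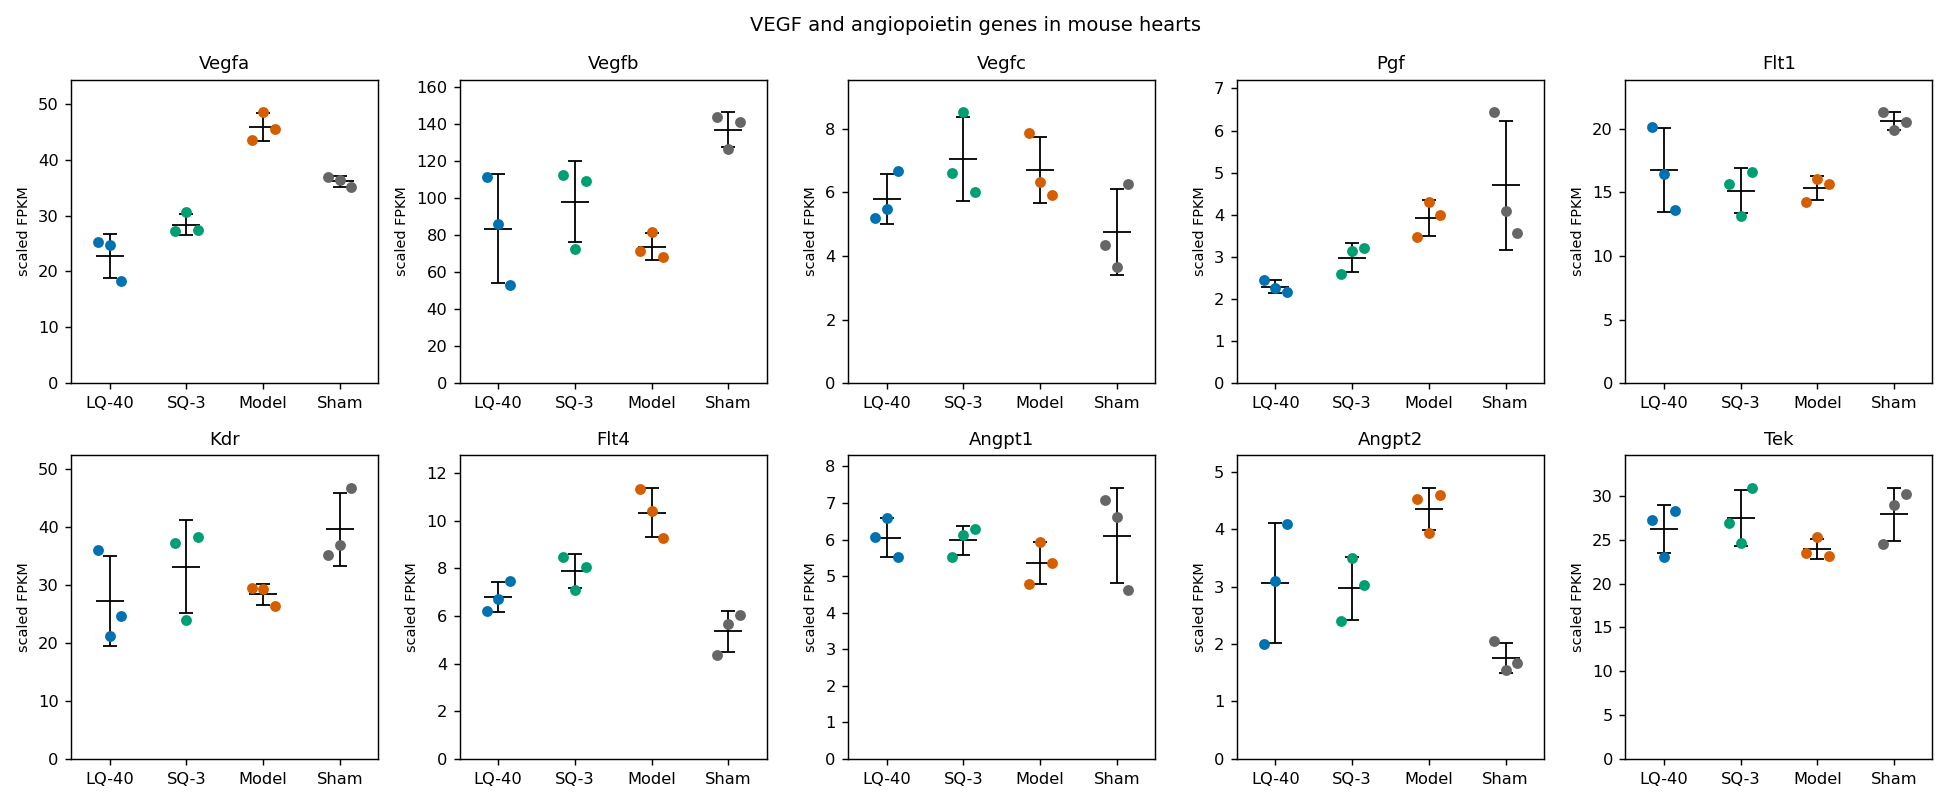
Scaled FPKM (vertical axes, from 0) of the 10 genes in LQ-40, SQ-3, Model and Sham hearts; points are libraries, 3 a group, and bars give the mean and SD. Vegfa is high in the Model libraries (43.6 to 48.5) and lies at 18.2 to 30.6 in LQ-40 and SQ-3 libraries, while Flt4 and Angpt2 lie highest in Model and lowest in Sham by their means.

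Ratios of members within a library do not depend on the library scaling, and they are given as descriptions. Vegfb over Vegfa was 1.63, 1.69 and 1.5 in Model libraries against 3.88, 3.47 and 4.02 in Sham libraries. Vegfa over the sum of Flt1 and Kdr was 0.996, 1.07 and 1.08 in Model libraries against 0.655, 0.640 and 0.521 in Sham libraries. In both ratios the groups lay apart, with more Vegfa relative to the other term in Model hearts. Vegfb and Flt1, in the other terms, were called lower in Model hearts, while Vegfa itself was not called. Angpt2 over Angpt1 was 0.947, 0.661 and 0.860 in Model libraries against 0.290, 0.235 and 0.360 in Sham libraries, and Flt4 over Kdr was 0.384, 0.355 and 0.352 in Model libraries against 0.125, 0.153 and 0.129 in Sham libraries. Flt1 over Kdr overlapped between the groups, at 0.483 to 0.595 in Model and 0.440 to 0.606 in Sham libraries. The sum of 10 endothelial markers holds none of the 10 genes and was used as a denominator. The ratio to it was 7.02 to 8.39% for Kdr in Model and 11.2 to 11.8% in Sham libraries, and for Flt1 4.05 to 4.18% in Model and 5.19 to 6.99% in Sham libraries. For Tek it was 6.18 to 6.67% in Model and 7.63 to 8.79% in Sham libraries. For Flt4 it was 2.47 to 3.22% in Model and 1.44 to 1.72% in Sham libraries, and for Angpt2 1.01 to 1.29% in Model and 0.420 to 0.674% in Sham libraries. None of these 5 ratios overlapped between the groups, lower in Model for Kdr, Flt1 and Tek and higher for Flt4 and Angpt2. The share of all genes for which such a ratio would not overlap was not computed. Single markers in the sum also differed. Eng, at 94.3 in Model and 65.9 in Sham hearts, Cldn5 and Vwf were called higher in Model, and Egfl7 lower. Kdr and Tek themselves were not called.

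**Figure D2:**
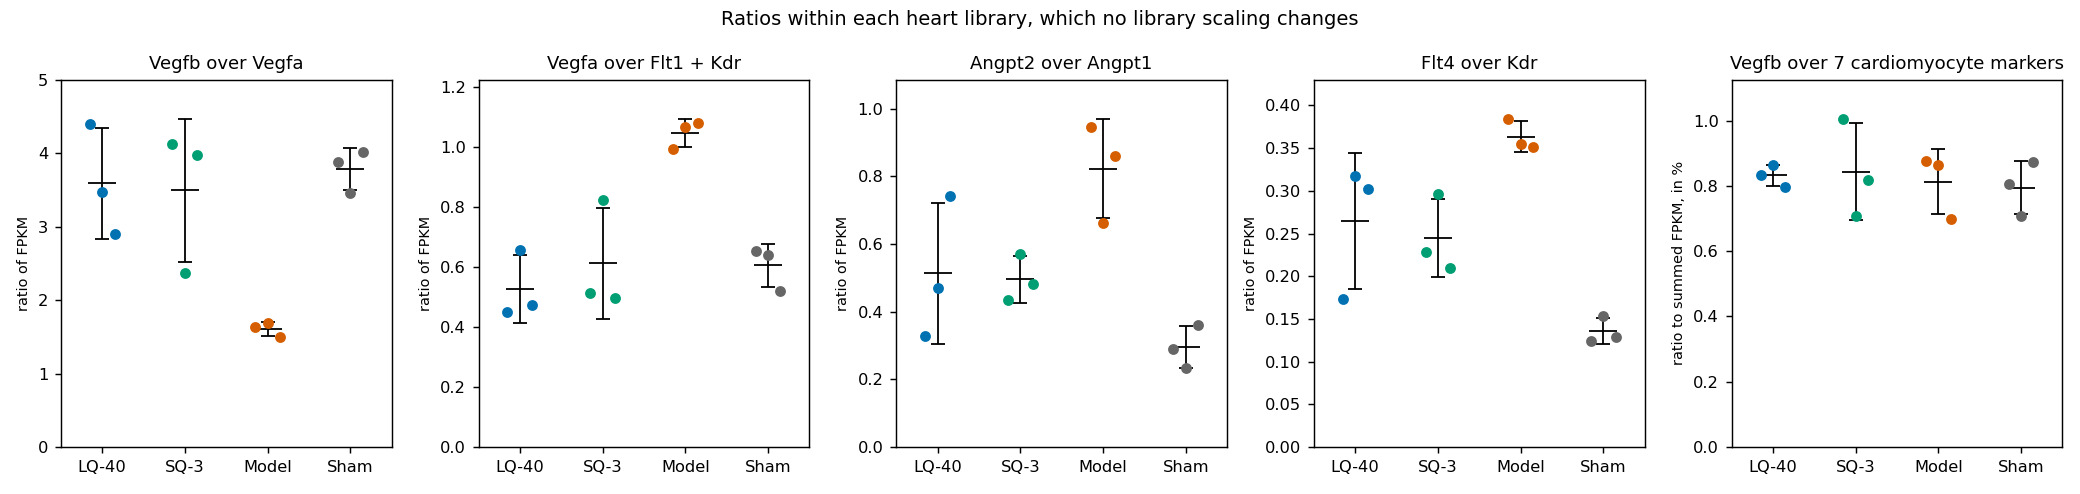
Ratios within each heart library (vertical axes, from 0, without unit, and in percent for Vegfb over the 7 cardiomyocyte markers) in LQ-40, SQ-3, Model and Sham hearts; points are libraries, 3 a group, and bars give the mean and SD. Vegfb over Vegfa is lowest in the Model libraries (1.5 to 1.69), and Vegfb over the cardiomyocyte markers overlaps in all groups.

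Other genes of the pathway were taken from lists of known roles, which were chosen with earlier results of these data known. Their counts stand beside 38.9% of all genes tested that were called, 20.9% higher and 18% lower. Of 11 tested co-receptors and signalling proteins of the VEGF receptors, 4 rose in Model hearts and none fell (median log2 0.13). In either direction this share was near that of all genes. Vegfd, a further ligand of VEGFR3, stood at 8.52 ± 1.76 scaled FPKM in Model hearts, against 0.818 ± 0.335 in Sham hearts (SD, n = 3 each). With 1 added to each level this was a 5.24-fold rise (adjusted p = 0.00122). The adaptor gene Shb rose 1.91-fold, the kinase gene Src 2.03-fold and the sphingosine kinase gene Sphk1 2.74-fold. The co-receptor Nrp1 stood at 21.8 ± 0.90 in Model hearts, against 25.5 ± 1.32 in Sham hearts, and was not called (adjusted p = 0.178). Of 7 partners of the angiopoietins and TIE receptors, 4 rose and none fell (median log2 0.34). Among them Svep1, a matrix protein, rose 5.10-fold (adjusted p = 0.00123). The ligand gene Angpt4 rose 2.34-fold with 1 added to each level, at low levels of 1.77 ± 0.92 in Model and 0.133 ± 0.036 in Sham hearts. Tie1, the receptor that pairs with TIE2, stood at 30.6 ± 0.84 in Model hearts, against 38.6 ± 5.84 in Sham hearts, and narrowly missed the threshold (adjusted p = 0.0531).

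Of 9 tested genes of vessel tip cells or induced by VEGF, 5 rose and none fell (median log2 0.85), including Plvap, which forms the diaphragms of endothelial openings and stood at 55.9 ± 7.54 scaled FPKM in Model hearts, against 8.17 ± 0.30 in Sham hearts (6.18-fold, adjusted p = 0.000704). Egr3 rose 3.10-fold, Unc5b 2.21-fold and Cxcr4 1.81-fold, while the tip cell gene Esm1 was not called (log2 0.92, adjusted p = 0.0589). All 7 tested genes of the list of inhibitors of VEGF signalling rose (median log2 1.37), among them the thrombospondin gene Thbs1, 22.5-fold, Col18a1, the source of endostatin, 3.23-fold, and Sema3f, which binds neuropilin 2, 2.00-fold. Of 13 hypoxia genes, 3 rose and 2 fell (median log2 0.15). Among all genes tested 38.9% were called, 20.9% higher and 18% lower, so the hypoxia share was near that of all genes. Hif1a rose 1.72-fold and the glucose transporter gene Slc2a1 1.56-fold, while Pdk1 fell 1.53-fold and Egln1, a prolyl hydroxylase that marks HIF for breakdown, fell 1.67-fold. Among 10 endothelial markers 3 rose (Vwf, Cldn5 and Eng) and 1 fell (Egfl7), also near the share of all genes. Of 6 lymphatic markers 3 rose (Mmrn1, Pdpn and Reln) and 1 fell (Prox1). In the same libraries all 7 fibroblast markers and 5 of 6 macrophage markers rose and 6 of 7 cardiomyocyte markers fell. Of 5 mesothelial markers, genes of the lining of the heart's surface, 3 rose: Msln 6.03-fold, Upk1b 3.89-fold and Krt19 3.68-fold. Their summed level was 14.9 to 79.8 scaled FPKM in Model and 2.76 to 15.4 in Sham libraries. Of 9 markers of pericytes and smooth muscle 2 were called higher, Pdgfrb 1.87-fold and Cspg4 1.34-fold, and none was called lower. Without overlap between the groups, 4 of the 9 lay higher and 3 lower in Model, against 29.8% and 25.7% of all genes. The sum of the 9 overlapped, at 434 to 469 in Model and 403 to 454 in Sham libraries. The part of these cell types in the differences above was not tested.

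**Figure D3:**
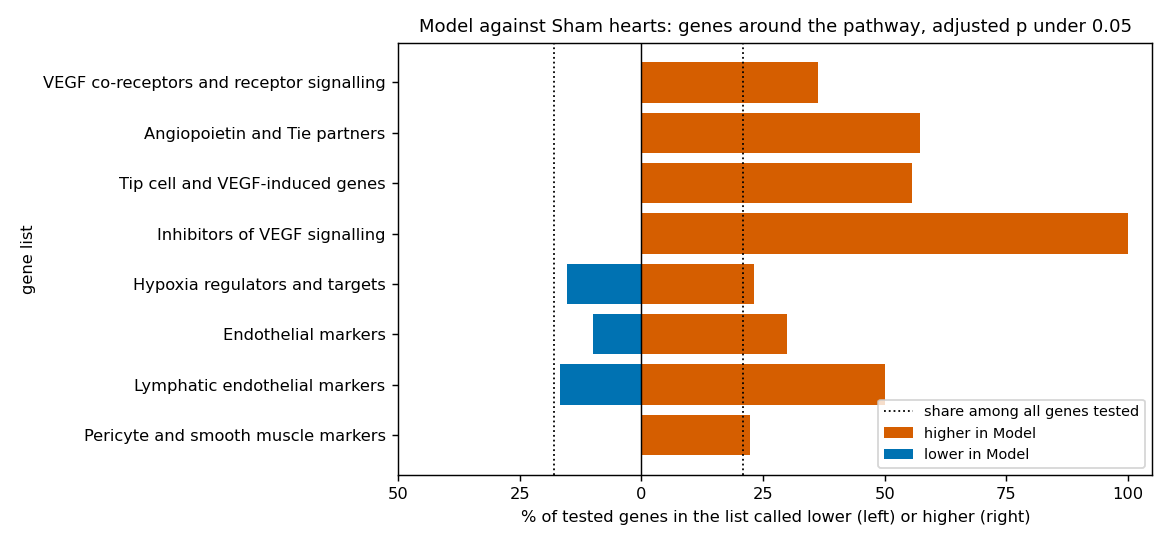
Share of tested genes in each list called higher (right) or lower (left) in Model than in Sham hearts, in percent, with dotted lines at the shares among all 13000 genes tested, 20.9% higher and 18% lower. All 7 inhibitors of VEGF signalling lie to the right, and the hypoxia, endothelial and lymphatic lists hold genes on both sides. The lists were chosen with earlier results of these data known.

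LQ-40 hearts were next set against Model hearts. Vegfa fell in LQ-40 hearts and was the single gene of the 10 to be called, where 0.669% of all genes tested were called and 0.485% were lower. Vegfa had 25.3, 24.7 and 18.2 scaled FPKM in LQ-40 libraries and 43.6, 48.5 and 45.4 in Model libraries. The highest LQ-40 library lay far below the lowest Model library. Vegfa was 1.99-fold lower in LQ-40 hearts (log2 -0.99, SE 0.13, adjusted p = 0.00573). The call was kept under 13 of 14 alternatives and lost with only these groups in the fit (adjusted p = 0.138, range 0.00322 to 0.138). The ratio of Vegfa to the cardiomyocyte sum was 0.189, 0.249 and 0.275% in LQ-40 and 0.537, 0.513 and 0.466% in Model libraries, so it did not overlap either.

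Of the other ligands, Pgf had 2.46, 2.26 and 2.17 scaled FPKM in LQ-40 libraries and 3.48, 4.30 and 3.99 in Model libraries, without overlap, but was not called (log2 -0.58, SE 0.16, adjusted p = 0.151). Vegfb had 111, 85.9 and 52.8 in LQ-40 libraries and 71.1, 81.7 and 68.2 in Model libraries. Its LQ-40 libraries lay on both sides of Model, in the order of their cardiomyocyte sums of 13338, 9933 and 6612. In each other group the order of Vegfb differed from that of the sums, which were 8114, 9444 and 9748 in Model libraries. A link between Vegfb and these sums was not tested. The ratio of Vegfb to the LQ-40 sums was 0.834, 0.864 and 0.798%. Vegfc stood at 5.78 ± 0.79 in LQ-40 hearts, against 6.70 ± 1.03 in Model hearts, with overlap (adjusted p = 0.721).

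Among the receptors, Flt4 had 6.22, 6.72 and 7.47 scaled FPKM in LQ-40 libraries and 11.3, 10.4 and 9.26 in Model libraries. These did not overlap, and the difference missed the threshold (log2 -0.54, SE 0.12, adjusted p = 0.0820, range 0.0666 to 0.286). Vegfa, Pgf and Flt4 were the 3 of the 10 genes without overlap, all lower in LQ-40, against 18.1% of all genes and 10.8% that were lower. Kdr had 36, 21.1 and 24.7 in LQ-40 libraries and 29.5, 29.3 and 26.3 in Model libraries, and Flt1 had 20.1, 16.5 and 13.6 in LQ-40 libraries and 14.2, 16.1 and 15.7 in Model libraries. Both receptors were highest in LQ-40 library 1 and overlapped Model. Angpt2 had 1.99, 3.10 and 4.09 in LQ-40 libraries and 4.52, 3.93 and 4.60 in Model libraries, overlapping through LQ-40 library 3 (log2 -0.43, adjusted p = 0.354). Angpt1 stood at 6.06 ± 0.53 in LQ-40 hearts, against 5.36 ± 0.59 in Model hearts (adjusted p = 0.697). Tek, at 26.2 ± 2.77 in LQ-40 hearts, against 24.0 ± 1.16 in Model hearts, was not called either (adjusted p = 0.739).

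SQ-3 hearts were set against the same Model libraries. None of the 10 genes was called by limma, 3 had an unadjusted p under 0.05 against 14.2% of all genes, and limma-voom on recovered reads called 0, while 0.346% of all genes tested were called. Vegfa had 27.2, 30.6 and 27.4 scaled FPKM in SQ-3 libraries and 43.6, 48.5 and 45.4 in Model libraries. The groups lay far apart, and the difference narrowly missed the threshold (log2 -0.67, SE 0.13, adjusted p = 0.0538). It passed with quantile normalization (adjusted p = 0.0372) and with genes of a mean of at least 5 FPKM (0.0429), in a range of 0.0372 to 0.247. The ratio of Vegfa to the cardiomyocyte sum was 0.243, 0.298 and 0.206% in SQ-3 and 0.537, 0.513 and 0.466% in Model libraries. The sum itself was higher in SQ-3 (10239 to 13306) than in Model libraries (8114 to 9748).

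Pgf, Flt4 and Angpt2 also lay below Model in every SQ-3 library, so that 4 of the 10 genes did not overlap, against 26.4% of all genes and 14.3% that were lower. Pgf had 2.60, 3.14 and 3.21 scaled FPKM in SQ-3 libraries and 3.48, 4.30 and 3.99 in Model libraries (log2 -0.31, adjusted p = 0.393). Flt4 had 8.49, 7.09 and 8.04 in SQ-3 libraries and 11.3, 10.4 and 9.26 in Model libraries (log2 -0.35, adjusted p = 0.271). Angpt2, the TIE2 antagonist, had 2.40, 3.49 and 3.02 in SQ-3 libraries and 4.52, 3.93 and 4.60 in Model libraries (log2 -0.44, adjusted p = 0.316). Vegfb, Vegfc, Flt1, Kdr, Angpt1 and Tek overlapped Model, with log2 differences between -0.02 for Flt1 and 0.38 for Vegfb. Among the 14 lists of other pathway genes and markers, the VEGFR2 adaptor gene Shb was the single gene called in each of the comparisons with Model. Of all genes tested 0.669% were called in LQ-40 against Model and 0.346% in SQ-3 against Model. Shb stood at 6.46 ± 0.23 in LQ-40 hearts, against 13.6 ± 2.32 in Model hearts (log2 -0.96, adjusted p = 0.0258). It stood at 6.18 ± 0.77 in SQ-3 hearts, against the same Model mean (log2 -1.02, adjusted p = 0.0317). The comparisons share the Model libraries, and the calls of Shb were not followed under the alternatives.

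**Figure D4:**
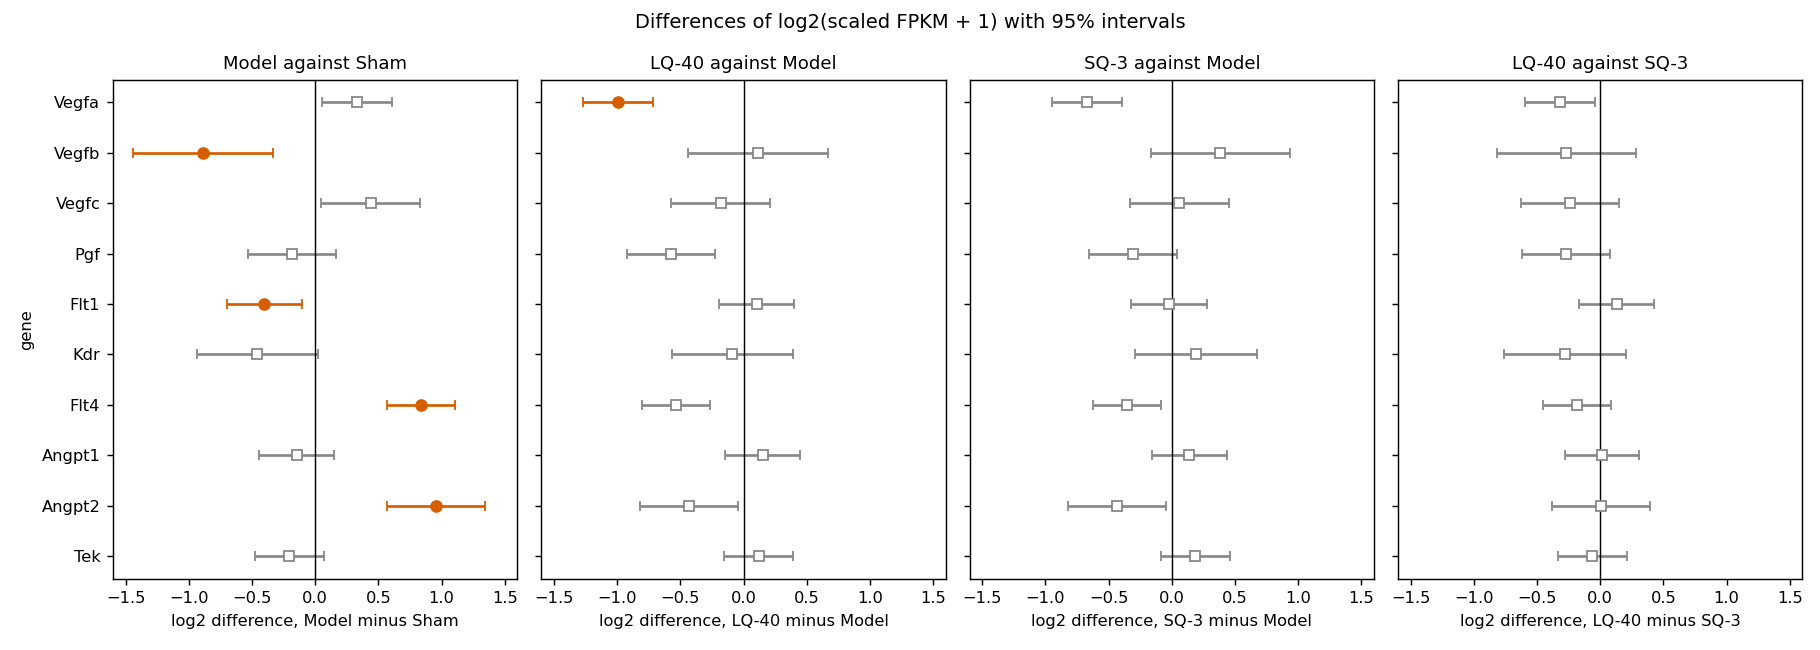
Difference of log2(scaled FPKM + 1) for the 10 genes in Model against Sham, LQ-40 against Model, SQ-3 against Model and LQ-40 against SQ-3 hearts; points are the fitted differences, bars their 95% intervals, and filled points have an adjusted p under 0.05. Vegfb, Flt1, Flt4 and Angpt2 are filled in Model against Sham, Vegfa in LQ-40 against Model, and none in the panels of SQ-3 against Model and LQ-40 against SQ-3.

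LQ-40 and SQ-3, the 1 pair of compounds, were then set against each other. None of the 10 genes was called, as limma called 0% of all genes tested, and limma-voom called none of the 10 either. At an unadjusted p under 0.05 stood 1 of the 10, Vegfa, against 3.03% of all genes. Vegfa was lower in each LQ-40 library (18.2 to 25.3 scaled FPKM) than in each SQ-3 library (27.2 to 30.6), with a log2 difference of -0.32, a 95% interval of -0.60 to -0.04 and an adjusted p of 0.9996. Pgf was 2.17 to 2.46 in LQ-40 and 2.60 to 3.21 in SQ-3 libraries, with a difference of -0.27 and an interval of -0.62 to 0.08. These 2 genes did not overlap, both lower in LQ-40, against 6.12% of all genes and 2.5% that were lower. The intervals of the other 8 genes all held 0. They were wide for Vegfb (-0.82 to 0.28) and Kdr (-0.76 to 0.20) and narrower for Flt4 (-0.45 to 0.08), Tek (-0.34 to 0.21) and Angpt1 (-0.28 to 0.31). A p that misses the threshold does not show that the compounds act alike.

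Against Sham hearts, Vegfa and Pgf were called lower in LQ-40 hearts, 2 of the 10 where 15.8% of all genes were called and 5.93% were lower. Vegfa, at 18.2 to 25.3 scaled FPKM in LQ-40 and 35.1 to 37.0 in Sham libraries, fell by 0.66 on the log2 scale (adjusted p = 0.0115), and Pgf, at 2.17 to 2.46 in LQ-40 and 3.58 to 6.43 in Sham libraries, fell by 0.76 (adjusted p = 0.0158). Neither overlapped Sham. With only these groups in the fit both calls were lost (adjusted p = 0.0858 for Vegfa and 0.0871 for Pgf), and the Pgf call was lost without LQ-40 library 2 (0.0578) or 3 (0.0573). Without LQ-40 library 1, the one of its group nearest Sham in its cardiomyocyte and fibroblast sums, 6 of the 10 were called: Vegfa, Vegfb, Pgf, Flt1 and Kdr lower and Angpt2 higher. In that fit 33.6% of all genes tested were called, 18.2% higher and 15.4% lower. In SQ-3 hearts Flt4 was the single gene called, where 6.71% of all genes were and 4.88% were higher. Flt4 had 8.49, 7.09 and 8.04 in SQ-3 libraries and 4.38, 5.66 and 6.03 in Sham libraries, without overlap (log2 0.49, adjusted p = 0.0401), and the call was lost under 9 of 14 alternatives. Vegfa lay at 27.2 to 30.6 in SQ-3 and 35.1 to 37.0 in Sham libraries, without overlap and without a call (log2 -0.34, adjusted p = 0.120). Vegfb, Pgf and Flt1 also lay below Sham in every SQ-3 library, and Angpt2 above it, none of them called. Without overlap were thus 6 of the 10, 2 higher and 4 lower, beside 4753 of 13000 genes tested, 2627 higher and 2126 lower. These comparisons share the Sham libraries with the first.

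Genes with the most similar pattern were read from Pearson's r over the 12 mouse libraries, which carry the group differences, as a description of these libraries. Vegfa was most like Abra (r = 0.96), Fam220a (0.91) and Hspa5 (0.89), and Vegfb most like Acads, Dhrs11 and Dele1 (all 0.99). For Flt4 the nearest were Bcar1 (0.98), Dtx4 (0.97) and Soga1 (0.97), and for Angpt2 A4galt, Sost and Panx1 (all 0.98). Flt1 was nearest to Egflam (0.98), Kdr to Dis3l (0.97) and Vegfc to Mta2 (0.97), while the best values for Tek, Pgf and Angpt1 were 0.89 with Sumo2, 0.89 with Rnps1 and 0.87 with Slc25a40. Among the 10 genes themselves the highest r was 0.87, between Vegfb and Flt1, and the lowest -0.90, between Vegfb and Angpt2. Flt1 and Kdr stood at 0.68, Flt4 and Angpt2 at 0.78, and Vegfa and Pgf at 0.75.

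In the rat cells, the 3D co-culture was set against the 2D cells of the same 3 types, with 1 library each (11910160 reads in 3D and 13262387 in 2D) and therefore no test. Before the values, the labels were set against markers. The summed level of 7 cardiomyocyte markers was 10.7 scaled FPKM in 3D and 10.1 in 2D cells, with Tnnt2 at 6.81 in 3D and 6.53 in 2D and Myl2 at 0 reads in both, so the labelled cardiomyocytes were hardly seen in either library. The 7 fibroblast markers summed to 2547 in 3D and 2457 in 2D, a sum mostly of Col1a1 (1788 in 3D and 2007 in 2D). Of the 7, Dcn (254 in 3D and 76.7 in 2D), Pdgfra (11.8 in 3D and 4.01 in 2D) and Lum (10.3 in 3D and 3.88 in 2D) were at least 2-fold higher in 3D, and Tcf21 (5.82 in 3D and 13.1 in 2D) was that much lower. The 6 macrophage markers summed to 33.7 in 3D and 25.5 in 2D, of which Cd14 made up 24.3 in 3D and 16.6 in 2D. Of the others, Csf1r was lower in 3D, at 2.43 in 3D and 3.84 in 2D. Adgre1 stood at 1.31 in 3D and 0.678 in 2D, Mrc1 at 0.360 in 3D and 0.296 in 2D, and C1qa had 1 read in each library. Col1a1, Tcf21, Mrc1 and C1qa are named here after their values were seen. The endothelial sum of 86.1 in 3D and 83.9 in 2D was mostly Eng (66.0 in 3D and 64.3 in 2D), and Cldn5 had 0 reads in both. Of 9 endothelial markers found in the rat, 6 reached 1 FPKM in a library. Esam had 63 reads in 3D and 31 in 2D, Ecscr 21 in 3D and 36 in 2D, and Vwf 100 in 3D and 155 in 2D. Markers of further cell types that the labels do not list were also present. The 9 pericyte and smooth muscle markers summed to 888 in 3D and 948 in 2D, mostly Acta2 (795 in 3D and 822 in 2D). The 5 mesothelial markers summed to 155 in 3D and 163 in 2D, mostly Msln (150 in 3D and 160 in 2D). Acta2 is also named after its values were seen.

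Of the 10 genes, 8 reached 1 FPKM, and 2 of these, Vegfa and Pgf, were at least 2-fold higher in 3D on the scale of scaled FPKM + 1, where 5.03% of 13405 genes compared were that much higher and 2.44% that much lower. Vegfa had 96.6 scaled FPKM in 3D and 43.4 in 2D, a ratio of reads adjusted for depth of 2.23 (95% exact interval 2.11 to 2.35, which covers counting error only). Pgf had 11.9 in 3D and 5.01 in 2D, a ratio of 2.38 (1.88 to 3.03). Vegfa and Pgf were thus both higher in the 3D library, while Vegfb, a further ligand of VEGFR1, was lower, at 48.7 in 3D and 63.0 in 2D (0.773, 0.714 to 0.838). Vegfc had 10.5 in 3D and 13.3 in 2D (0.794, 0.676 to 0.932). Angpt1 had 34.7 in 3D and 17.3 in 2D, a ratio of reads of 2.00 (1.78 to 2.25), or 1.95-fold with 1 added to each level, just under the 2-fold bound of that count. Angpt2 had 1.58 in 3D and 2.27 in 2D (0.697, 0.470 to 1.02). Angpt1 was the more abundant angiopoietin in both libraries, and Angpt2 over Angpt1 was 0.0455 in 3D and 0.131 in 2D.

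Of the receptors, Flt1 had 13.0 scaled FPKM in 3D and 11.2 in 2D (ratio 1.16, 1.06 to 1.26). Kdr rested on 20 reads in 3D and 26 in 2D, and Flt4 on 17 reads in 3D and 24 in 2D, so at 0.255 to 0.310 scaled FPKM neither could be compared at this depth. Tek had 3.07 in 3D and 3.29 in 2D (0.932, 0.754 to 1.15). The ligand gene Vegfa was plentiful in both libraries, while Kdr, which encodes VEGFR2, was nearly without reads. Flt1, whose product VEGFR1 also binds VEGFA, had 1056 reads in 3D and 1057 in 2D. Of 13 hypoxia genes, 5 were at least 2-fold higher in 3D and none that much lower. Egln3, a HIF target that hydroxylates HIF, had 12.8 in 3D and 0.393 in 2D, Ndrg1 had 8.31 in 3D and 1.55 in 2D, and Slc2a1 had 43.3 in 3D and 11.8 in 2D. Ankrd37 and Epas1, named here after their values were seen, were the other two. The study's title places the 3D tissue under hypoxia, so the form of the culture and low oxygen cannot be told apart in this comparison.

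**Figure D5:**
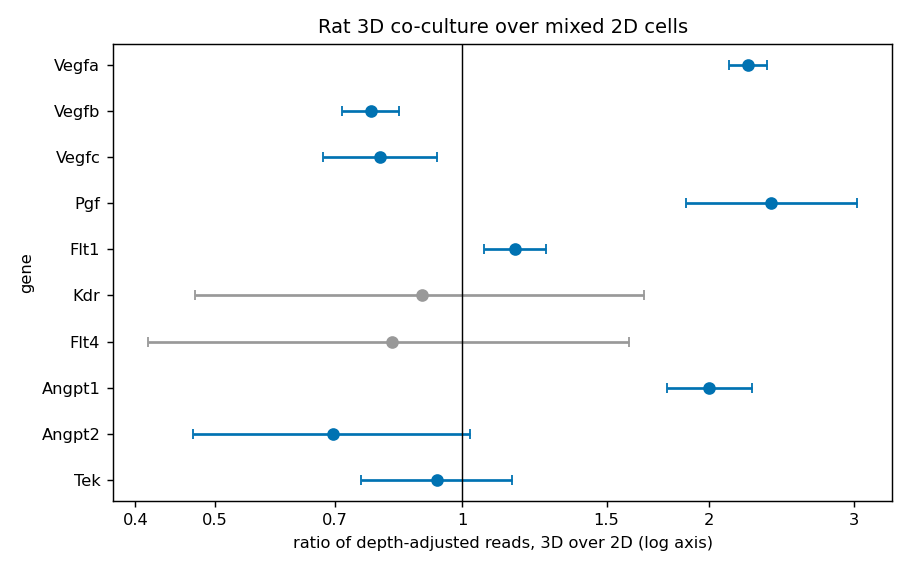
Ratio of depth-adjusted reads, 3D over 2D (logarithmic axis), of the 10 genes in the rat libraries, 1 each; bars are exact 95% intervals, which cover counting error only, and grey marks genes under 1 FPKM in both. Vegfa (2.23), Pgf (2.38) and Angpt1 (2.00) lie to the right of 1, and Vegfb (0.773) and Vegfc (0.794) to the left.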

How the data were processed

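Messenger RNA of 12 mouse heart libraries and 2 rat cell libraries was captured with poly-T beads, per the labels' protocols, which describe both an unstranded and a strand-specific library without saying which was used. Per the submitters' processing notes, the tools were HISAT2 2.0.5, featureCounts 1.5.0-p3 and fastp, and the builds mm10 and Rnor_6.0. The authors deposited FPKM per gene, which depend on gene length and on a measure of library size, together with other columns such as gene length, gene name and coordinates, which the authors also deposited. Whole reads were recovered from the FPKM steps for 100% of values (tolerance 0.02 of a read). The annotation release, strand setting and treatment of reads with several matches are not stated in the sources used. Coordinates and exon lengths of the 10 mouse genes equalled those of GENCODE vM21.

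A median-of-ratios factor per library was used to scale the FPKM (0.975 to 1.03 in mouse, over 10422 genes). Genes of at least 1 FPKM in at least 3 of 12 libraries (13000) were tested on log2(scaled FPKM + 1). The test was limma 3.58.1 (R 4.3.3), all 4 groups in one fit, two-sided, with Benjamini-Hochberg adjustment over all genes and a threshold of 0.05. Every adjusted p in the text is from limma. Fold changes are on this scale, which understates changes of low genes, and n = 3 libraries a group limits their precision. The script for the test was checked on simulated data. Rat genes that reached 1 FPKM in a library were compared without a test, with exact binomial intervals at 95% from scipy 1.17.1.

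The 10 members, the 14 lists and the tests were chosen with earlier results of these data known. Named genes were all 10 members, per list and comparison up to 4 called genes by smallest adjusted p and up to 2 others by smallest p, per member the 3 protein-coding genes of highest r, and per list up to 3 rat genes of largest ratio. Alternatives tried were quantile normalization or no scaling, a pseudocount of 0.1, limma-voom on recovered reads, a filter at a mean of 5 FPKM or none, a fit of only the groups compared, a replicate block, and leaving out each library.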

Additional observations from a re-analysis of the deposited data

How the results depend on the processing

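Of 828 alternative values for the 10 genes in 6 comparisons of mouse hearts, 758 kept their direction and side of the threshold, 27 lost a call, 12 gained one and 31 changed sign, in each case without a call before or after. Those 31 belong to 14 differences near 0. On the log2 scale, leaving out a library gave -0.32 to 0.026 for Pgf in Model against Sham. In LQ-40 against Model it gave -0.12 to 0.41 for Vegfb, -0.030 to 0.24 for Flt1 and -0.30 to 0.071 for Kdr, and in SQ-3 against Model -0.069 to 0.16 for Vegfc and -0.089 to 0.067 for Flt1. In LQ-40 against SQ-3 it gave -0.51 to 0.024 for Vegfb, -0.0059 to 0.26 for Flt1, -0.039 to 0.069 for Angpt1, -0.17 to 0.21 for Angpt2 and -0.14 to 0.022 for Tek. Against Sham it gave -0.16 to 0.10 for Angpt1 in LQ-40, and -0.17 to 0.090 for Angpt1 and -0.11 to 0.051 for Tek in SQ-3. Angpt2 in LQ-40 against SQ-3 was also -0.0018 with FPKM as deposited and -0.011 with quantile normalization. Angpt1 in LQ-40 against Sham was -0.042 with FPKM as deposited, -0.037 with quantile normalization and -0.025 with limma-voom, and Tek in SQ-3 against Sham was 0.047 with quantile normalization. The number of the 10 genes called in Model against Sham, 4, was 2 to 4 when a library was left out. In LQ-40 against Model it was 1 in each of these, and 0 with only these groups in the fit. In SQ-3 against Model it was 0, but 1 with quantile normalization and 1 with a mean of at least 5 FPKM. In LQ-40 against Sham it was 2, but 0 with only these groups, and 1 to 6 when a library was left out. In SQ-3 against Sham it was 1, but 0 with quantile normalization, no filter, only these groups or a replicate block, and 0 to 1 when a library was left out. The causes were not tested.

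Among all genes, calls in Model against Sham numbered 5053 and were 3291 with a mean of at least 5 FPKM, where fewer genes are tested, and 3288 without Model library 1. In LQ-40 against Model they numbered 87, against 48 with no filter, 14 with only these groups and 31 to 155 when a library was left out. In SQ-3 against Model they numbered 45, and 12 to 26 when a library was left out. In LQ-40 against SQ-3, 0 became 2 with no filter and 1 without SQ-3 library 1. In LQ-40 against Sham, 2049 became 778 with no filter, 230 with only these groups and 412 to 4372 when a library was left out. In SQ-3 against Sham, 872 became 262 with no filter and 227 to 444 when a library was left out.

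No label says that replicate numbers pair the samples, and the deviations of same-numbered libraries correlated between -0.27 and 0.22. With the replicate number as a block, 3 of the 10 genes were called in Model against Sham (Flt1 was lost), 1 in LQ-40 against Model, 0 in SQ-3 against Model, 2 in LQ-40 against Sham and 0 in SQ-3 against Sham; among all genes the count in SQ-3 against Model was 29. Genes at a few FPKM, such as Angpt2 and Pgf, rest on the fewest reads, and in the rat Kdr and Flt4 on too few to compare.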
